A study of Mus musculus with 6 samples.

Results

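Eicosanoid and neuropeptide receptors and enzymes are genes for receiving lipid and nerve-derived signals and for making such lipids, here in group 2 innate lymphoid cells (ILC2s). The set described was given as a list of 9 genes: Cysltr1, Ptgdr2, Ptger4, Ptgir, Alox5, Hpgds, Nmur1, Vipr2 and Ramp1. Values of 8 of them were analysed, of 17546 genes in all, and Ptgdr2 was not analysed here. The cells were ILC2s from the lungs of BALB/c mice given 3 intranasal doses of 1 µg IL-33, the alarmin that activates these cells. All cultures, controls included, contained 10 ng/mL of both IL-2 and IL-7. They were exposed for 24 h to 10 µM Yoda1, an opener of the mechanosensitive calcium channel Piezo1, or to DMSO, with 3 bulk RNA-seq libraries per group, numbered DMSO 1 to 3 and Yoda1 4 to 6. The sources used here give neither the age of the mice nor whether a group's libraries are from separate animals or cultures; the p-values therefore reflect only how these 6 libraries vary, which may be technical variation. Labels of DMSO 2 and DMSO 3 share a number (19), as do those of Yoda1 4 and Yoda1 5 (21), so these pairs may not be independent. The main test and each SD nevertheless count every library as a replicate. The label of the control is DMSO, whereas the design text and the table's own treatment column call the same 3 libraries PBS.

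Eicosanoids are lipid mediators made from arachidonic acid. Lipoxygenases lead to leukotrienes and cyclooxygenases to prostaglandins, and both act on G protein-coupled receptors of nearby cells. Cysteinyl leukotrienes and prostaglandin D2 are known activators of lung ILC2s, while prostaglandin E2 and prostacyclin, which raise cyclic AMP, are known to restrain them. Of the neuropeptides, neuromedin U activates ILC2s through the receptor encoded by Nmur1, vasoactive intestinal peptide acts through Vipr2, and calcitonin gene-related peptide (CGRP) acts through the receptor protein encoded by Calcrl paired with the accessory protein encoded by Ramp1.

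One of the 8 genes passed the test over all genes: Cysltr1, the receptor for cysteinyl leukotrienes, fell with Yoda1. None of the others passed in the main edgeR fit, in either direction, and limma voom called none of them. Ptger4 passed, as higher, in edgeR on genes of at least 10 CPM in 3 libraries. DESeq2 called 2 (Ptger4 and Ramp1, both higher). Over all genes, DESeq2 called 422 higher and 496 lower, against 76 and 123 in the main edgeR fit. The test was the quasi-likelihood test of edgeR, its p-values adjusted over 13325 genes (Benjamini-Hochberg) with a threshold of 0.05, by which 1.49% of all tested genes were called, 0.57% higher and 0.923% lower. All 8 genes passed the filter on low counts. A change is the log2 of the fold of Yoda1 over DMSO, and a level is in CPM, the counts of a gene scaled to a common library size (1000000) with TMM factors. Estimated changes were positive for 6 genes (Ptger4, Ptgir, Alox5, Hpgds, Vipr2 and Ramp1) and negative for Cysltr1 and Nmur1, with a median of 0.40 against 0.01 over all tested genes. Without adjustment, a p under 0.05 was reached by 4 in the higher and 2 in the lower direction, where 7.39% and 7.11% of all tested genes reached it. The 3 DMSO and 3 Yoda1 libraries did not overlap for 3 genes in the higher and 2 in the lower direction, against 10.6% and 12% of all tested genes. Since the genes were picked with results of these data known, these shares describe the list and carry no test. In bulk RNA, fewer cells of a type and less RNA per cell cannot be told apart.

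**Figure D1:**
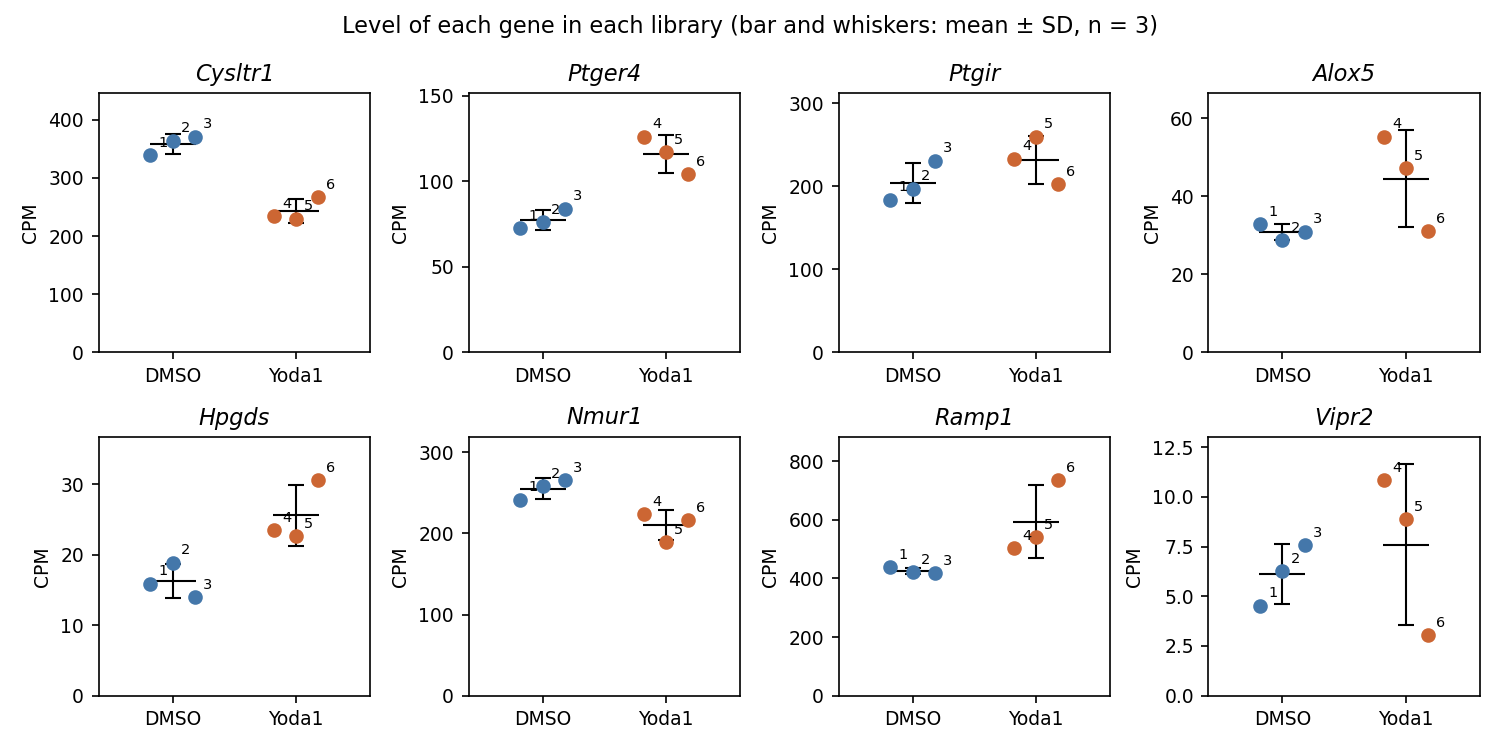
Level in CPM (y axis, from 0) of each of the 8 genes in the 3 DMSO and 3 Yoda1 libraries (points with the library's number), with mean ± SD. Cysltr1 and Nmur1 are lower in all Yoda1 libraries, Ptger4, Hpgds and Ramp1 are higher in all of them, and Yoda1 6 stands away from Yoda1 4 and Yoda1 5 for Ramp1, Hpgds, Alox5 and Vipr2.

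The bases before the transcription start are shown for 4 of these genes, because they are the genes whose groups did not overlap and that have an entry in the promoter table of RefSeq (build GRCm38.p6). The table matched 7 of the 8 genes; Cysltr1 had no entry. Each run holds the 250 bases before the annotated start, 5′ to 3′ on the gene's strand. Capitals mark matches, on either strand, to TGACG (the core of the cyclic AMP response element), TGATAA (a motif of GATA factors), AGATAA (a further GATA motif), AGATAG (a variant of it) or GGAAAA (the core of the NFAT motif). No match overlapped another in the runs shown. Starts are those of RefSeq, which for Nmur1 and Hpgds lie inside the gene span given below.
Ramp1, chr1:91179572-91179821, plus strand: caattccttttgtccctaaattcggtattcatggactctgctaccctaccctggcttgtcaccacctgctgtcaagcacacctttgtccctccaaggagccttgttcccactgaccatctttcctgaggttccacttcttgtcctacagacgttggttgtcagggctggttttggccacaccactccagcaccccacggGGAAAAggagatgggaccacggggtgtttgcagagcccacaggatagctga
Hpgds, chr6:65144731-65144980, minus strand: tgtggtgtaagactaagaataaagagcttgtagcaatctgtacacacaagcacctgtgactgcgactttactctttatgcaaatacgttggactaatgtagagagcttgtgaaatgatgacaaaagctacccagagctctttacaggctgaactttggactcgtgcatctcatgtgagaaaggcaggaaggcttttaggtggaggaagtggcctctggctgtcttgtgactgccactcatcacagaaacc
Ptger4, chr15:5244188-5244437, minus strand: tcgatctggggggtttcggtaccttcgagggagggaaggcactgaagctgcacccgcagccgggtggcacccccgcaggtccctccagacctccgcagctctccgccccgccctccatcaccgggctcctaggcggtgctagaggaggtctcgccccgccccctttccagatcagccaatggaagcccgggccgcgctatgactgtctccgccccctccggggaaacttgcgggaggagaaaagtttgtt
Nmur1, chr1:86389362-86389611, minus strand: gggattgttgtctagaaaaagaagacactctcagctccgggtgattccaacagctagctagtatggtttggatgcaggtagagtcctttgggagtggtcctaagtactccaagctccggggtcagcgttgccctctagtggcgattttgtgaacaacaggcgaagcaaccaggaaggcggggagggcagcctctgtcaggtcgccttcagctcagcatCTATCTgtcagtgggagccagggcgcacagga
Ramp1 held 1 match to GGAAAA, which 20.4% of all 32851 windows of this length in the table held, and Nmur1 held 1 match to AGATAG in its first window, which 7.71% of windows held. In a further window that the table gives for Nmur1, there was 1 match to TGATAA, held by 7.94% of windows. The runs of Hpgds and Ptger4 had no match to the 5 motifs, and neither did those of Ptgir, Alox5 and Vipr2. TGACG occurred in none of the members' windows, against 17.8% of all windows, and AGATAA in none, against 9.99%. A match here is a description of letters, not of binding.

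Levels between genes were compared per length, as CPM divided by the kilobases of all annotated exons of a gene. In the DMSO libraries Nmur1 and Ramp1 stood at the top, at 151 ± 7 and 141 ± 4 CPM per kb (SD, n = 3), and their libraries overlapped. Cysltr1, at 69.7 ± 3.2 CPM per kb, and Ptgir, at 61.2 ± 7.3 CPM per kb, came next and also overlapped. Ptger4 followed at 11.7 ± 0.9, Alox5 at 7.501 ± 0.510, Hpgds at 2.53 ± 0.38 and Vipr2 at 1.37 ± 0.34 CPM per kb, and none of these 4 overlapped its neighbour in this order. With Yoda1 the order at the top differed: Ramp1 was at 196 ± 41 and Nmur1 at 124 ± 11 CPM per kb, without overlap. The ratio of Ramp1 to Nmur1, both per kb, was 1.02, 0.913 and 0.883 over the DMSO libraries, against 1.26, 1.61 and 1.90 over the Yoda1 libraries. Ptgir, at 69.6 ± 8.7 CPM per kb with Yoda1, then lay above Cysltr1, at 47.4 ± 4.0 CPM per kb, and those groups did not overlap either. These 2 shifts in order were seen in the values and not tested.

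**Figure D2:**
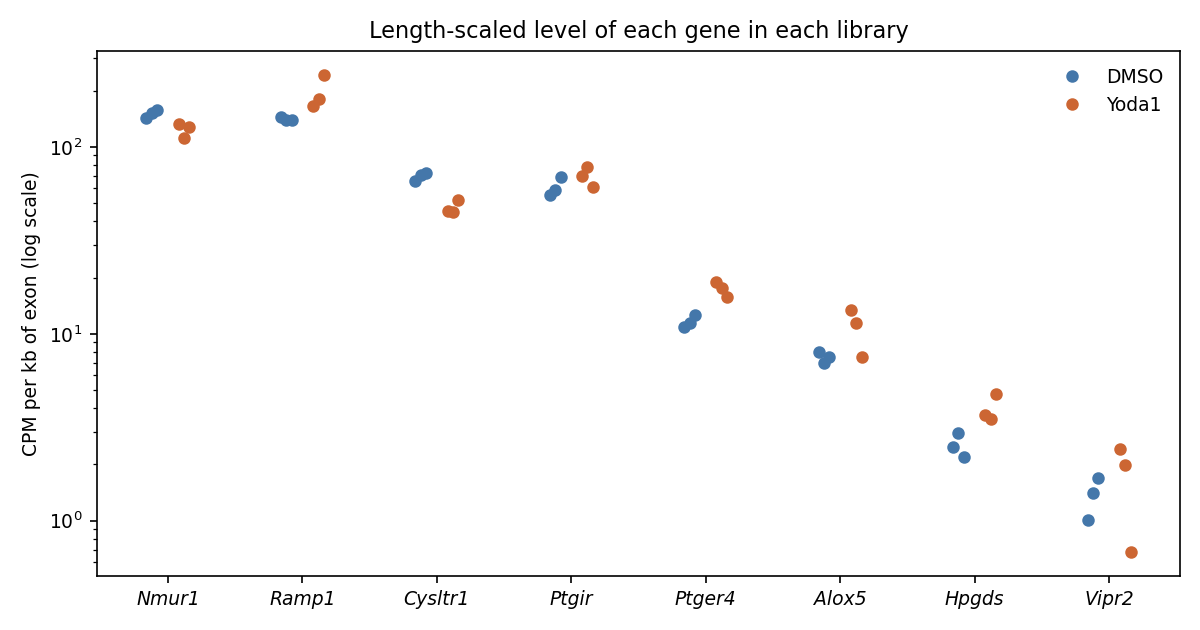
Length-scaled level (CPM per kb of exon, log axis) of the 8 genes in each library, ordered by the DMSO mean. Nmur1 and Ramp1 overlap in DMSO near 151 and 141 CPM per kb and part in the Yoda1 libraries, and Vipr2 is the lowest in both groups.

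Among the receptors for lipid mediators, Cysltr1 was the gene that passed. It lies on chromosome X at 106574346 to 106603679 (GRCm38, minus strand). Its level was 339, 364 and 371 CPM in libraries 1, 2 and 3 of DMSO, against 234, 229.9 and 267 CPM in libraries 4, 5 and 6 of Yoda1. The groups did not overlap, and the lowest DMSO library lay above the highest Yoda1 library. The log2 change was -0.56 (SE 0.10, 95% interval -0.78 to -0.33, Benjamini-Hochberg adjusted p = 0.0379 in edgeR), a fold of 0.680 (95% interval 0.581 to 0.796). The direction held in each of the 18 other settings tried, with log2 changes from -0.63 to -0.49. These settings reuse the same libraries, whose groups did not overlap, so they hardly test the sign. The call rested on having all libraries: with 1 library left out in turn it was lost for 5 of 6 (adjusted p 0.113, 0.193 and 0.185 without DMSO 1, 2 and 3, and 0.0795 and 0.163 without Yoda1 4 and 5) and held without Yoda1 6 (adjusted p = 0.018). It was also lost when the libraries sharing a label number were added together (log2 change -0.51, adjusted p = 0.301). The suffix of the label was 0 for DMSO 1 and DMSO 2, and 45 to 48 for DMSO 3 and the Yoda1 libraries. With suffix 0 against the rest as a term in the model, DMSO 3 alone is set against Yoda1, and the log2 change was -0.61. The neighbouring gene Gm5127 overlaps Cysltr1 on the opposite strand but shares no exon base with it.

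The second receptor for cysteinyl leukotrienes, Cysltr2, held 42.0 ± 2.5 CPM with DMSO, against 45.7 ± 7.4 CPM with Yoda1, and did not pass; its log2 change was 0.12 (SE 0.18). The ratio of Cysltr1 to Cysltr2 in CPM was 8.34, 9.01 and 8.27 over the DMSO libraries, against 4.51, 4.81 and 7.13 over the Yoda1 libraries. Ltb4r1, which encodes the high-affinity receptor for leukotriene B4, was picked out after its values were seen. Its level was 839.8, 892 and 872 CPM with DMSO, against 1059.9, 1098 and 1109 CPM with Yoda1. Its groups did not overlap, and the log2 change of 0.33 (SE 0.07) did not pass (adjusted p = 0.0634), although DESeq2 and limma voom called it (adjusted p = 0.000338 and 0.0376). The ratio of Cysltr1 to Ltb4r1 in CPM lay between 0.404 and 0.426 in the DMSO libraries and between 0.209 and 0.241 in the Yoda1 libraries.

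Ptger4 encodes EP4, a prostaglandin E2 receptor that couples to cyclic AMP production. It lies on chromosome 15 at 5206661 to 5244187 (minus strand) and was at 72.5, 76.0 and 83.9 CPM in libraries 1, 2 and 3 of DMSO, against 126, 117 and 104 CPM in libraries 4, 5 and 6 of Yoda1. All Yoda1 libraries lay above all DMSO libraries. Its log2 change of 0.58 (SE 0.13, 95% interval 0.28 to 0.88) missed the threshold (Benjamini-Hochberg adjusted p = 0.075), but passed in DESeq2 (adjusted p = 0.00106) and in edgeR on genes of at least 10 CPM in 3 libraries (adjusted p = 0.0411). With the libraries sharing a label number added together, it was 0.57 (adjusted p = 0.328). A processed pseudogene on the opposite strand, Gm15937, shares 15.3% of the exon bases of Ptger4, and the gene Ttc33 shares 1.23% of them; the sources used here do not say whether the counting used strand. Ptger2, which encodes the other cyclic AMP-coupled prostaglandin E2 receptor, EP2, was at 61.8, 70.0 and 61.9 CPM with DMSO, against 82.1, 114 and 84.4 CPM with Yoda1. These groups did not overlap either, and the log2 change of 0.53 (SE 0.16) did not pass (adjusted p = 0.17).

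Ptgir encodes the prostacyclin receptor and lies on chromosome 7 at 16906490 to 16910905 (plus strand). It was at 184, 197 and 231 CPM with DMSO, against 234, 259.95 and 202 CPM with Yoda1. The groups overlapped, with Yoda1 6 among the DMSO values, and the log2 change was 0.18 (SE 0.13, 95% interval -0.12 to 0.49, adjusted p = 0.579). The interval reaches from a fold of 0.923 to one of 1.40. On the log2 scale, the change was 0.10 without Yoda1 5, 0.12 without DMSO 1 and 0.0048 with the label suffix as a term. Of 10 tested eicosanoid receptor genes, 8 had positive and 2 negative changes with a median of 0.26, and Cysltr1 was the only call, in the lower direction; DESeq2 also called Ltb4r1, Ptger4 and Ptger2 higher. Tbxa2r, the thromboxane receptor gene, was the other one with a negative change, at 2.00 ± 2.71 and 0.612 ± 0.706 CPM.

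**Figure D3:**
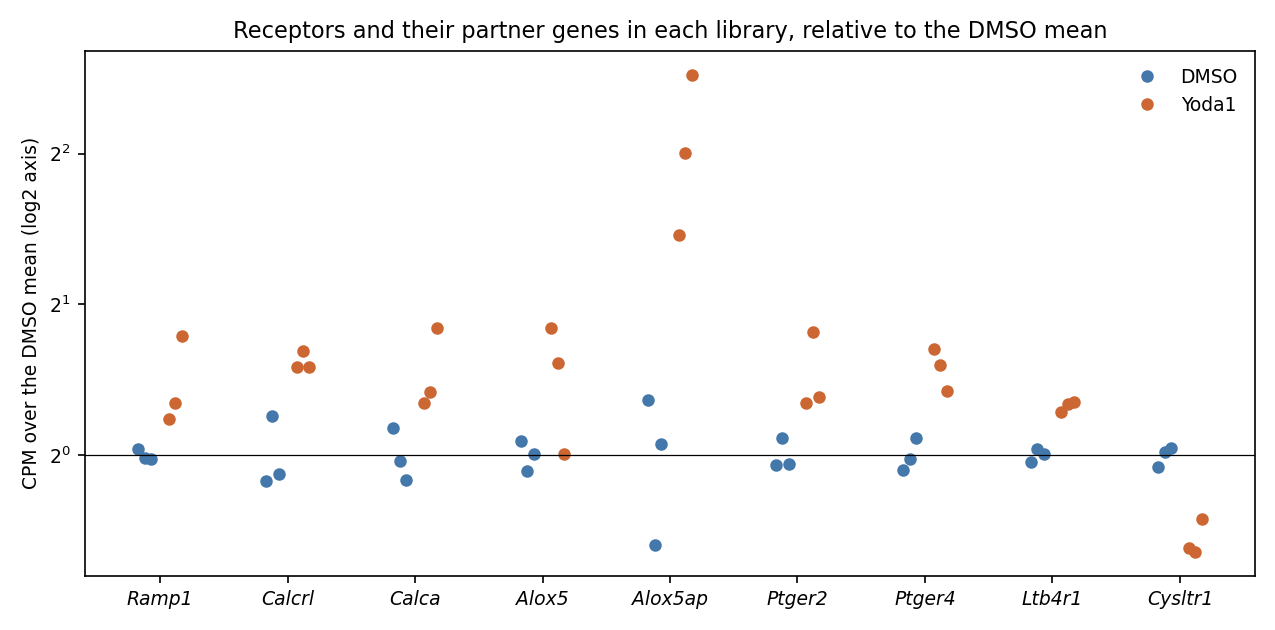
CPM in each library divided by the DMSO mean of the gene (log2 axis) for receptors and their partner genes. Cysltr1 lies below 1 in all Yoda1 libraries, while Ramp1, Calcrl, Calca, Ptger2, Ptger4, Ltb4r1 and Alox5ap lie above their DMSO libraries in each of them, and Alox5 overlaps through Yoda1 6.

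Among the enzymes, Alox5 encodes 5-lipoxygenase, the enzyme that begins leukotriene synthesis, and lies on chromosome 6 at 116410077 to 116461178 (minus strand). It was at 32.8, 28.7 and 30.9 CPM in libraries 1, 2 and 3 of DMSO, against 55.2, 47.1 and 31.0 CPM in libraries 4, 5 and 6 of Yoda1. Yoda1 6 lay among the DMSO libraries while Yoda1 4 and 5 lay above them. The log2 change was 0.53 (SE 0.23, 95% interval 0.0046 to 1.05) and did not pass (adjusted p = 0.342); without Yoda1 6 it was 0.73 (adjusted p = 0.0912), and without Yoda1 4 it was 0.34.

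Alox5ap, which encodes the protein that presents arachidonic acid to 5-lipoxygenase, was at 3.81, 1.96 and 3.11 CPM with DMSO, against 8.13, 11.9 and 17.0 CPM with Yoda1. Its groups did not overlap and its log2 change was 2.07 (SE 0.41, adjusted p = 0.0528), just outside the threshold; DESeq2 and limma voom called it (adjusted p = 0.000473 and 0.0431). Yoda1 6 had the highest Alox5ap of all libraries and the lowest Alox5 of its group. Alox8, another arachidonate lipoxygenase gene, was at 12.1, 8.80 and 8.21 CPM with DMSO, against 0.387, 1.96 and 1.67 CPM with Yoda1. Its groups did not overlap and its log2 change of -2.84 (SE 0.58) also lay just outside the threshold (adjusted p = 0.0547), while it passed in DESeq2 (adjusted p = 0.000208), in edgeR with upper quartile scaling (adjusted p = 0.0489) and in edgeR without Yoda1 4 (adjusted p = 0.0493). The enzyme that makes leukotriene B4, encoded by Lta4h, was at 123 ± 17 and 119.6 ± 5.3 CPM.

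Hpgds encodes the hematopoietic prostaglandin D2 synthase and lies on chromosome 6 at 65117293 to 65144908 (minus strand). It stood at 15.9, 18.8 and 14.01 CPM in libraries 1, 2 and 3 of DMSO, against 23.5, 22.6 and 30.6 CPM in libraries 4, 5 and 6 of Yoda1. The Yoda1 libraries lay above all DMSO libraries, with Yoda1 6 the highest. The log2 change was 0.65 (SE 0.23, 95% interval 0.13 to 1.18) and did not pass (adjusted p = 0.236), nor did it in any other setting tried. The cyclooxygenases upstream of it were scarce: Ptgs1 was at 7.45, 0.978 and 0.141 CPM with DMSO, against 3.42, 0 and 2.69 CPM with Yoda1, and Ptgs2 was at 2.87, 3.69 and 1.41 CPM with DMSO, against 0.258, 0 and 0.119 CPM with Yoda1. The Ptgs2 groups did not overlap; the gene did not pass (adjusted p = 0.0856), although DESeq2 called it (adjusted p = 0.00387). Ptges2, a prostaglandin E synthase gene, was at 46.2 ± 4.7 and 60.9 ± 5.7 CPM (adjusted p = 0.295).

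None of 24 tested genes of eicosanoid enzymes and transport passed in edgeR as fitted to all 6 libraries with TMM factors. They had 12 positive and 12 negative changes and a median of 0.01. At an unadjusted p under 0.05, 4 were higher and 2 lower, against 7.39% and 7.11% of all tested genes. Among genes that release arachidonate, Pla2g12a was at 38.2 ± 4.4 and 27.7 ± 5.7 CPM and Pla2g5 at 0.556 ± 0.466 and 0.768 ± 0.808 CPM. Abcc1, an exporter of leukotriene C4, was at 69.3 ± 7.2 and 92.2 ± 20.9 CPM, and the prostaglandin reductase gene Ptgr2 was at 46.9 ± 4.1 and 51.8 ± 4.0 CPM.

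Nmur1, the receptor for neuromedin U, lies on chromosome 1 at 86386303 to 86426228 (minus strand). It was at 241, 259 and 266 CPM in libraries 1, 2 and 3 of DMSO, against 224, 189 and 217 CPM in libraries 4, 5 and 6 of Yoda1. All Yoda1 libraries lay below all DMSO libraries, by a margin smaller than that of Cysltr1. The log2 change was -0.28 (SE 0.11, 95% interval -0.52 to -0.04) and missed the threshold (Benjamini-Hochberg adjusted p = 0.266). It passed in none of the 18 other settings, where it ran from -0.34 to -0.21.

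Ramp1, on chromosome 1 at 91179822 to 91225196 (plus strand), was the member with the most reads. It was at 438, 421 and 418 CPM in libraries 1, 2 and 3 of DMSO, against 503, 542 and 736 CPM in libraries 4, 5 and 6 of Yoda1. The DMSO libraries lay close together, with a coefficient of variation of 2.51% against 21.0% with Yoda1, and all Yoda1 libraries lay above them. The log2 change was 0.48 (SE 0.14, 95% interval 0.16 to 0.80) and did not pass (adjusted p = 0.147), whereas DESeq2 called it (adjusted p = 0.0185). Without Yoda1 6, the highest library, it was 0.30.

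The receptor chain that pairs with RAMP1, encoded by Calcrl, was at 35.5, 47.7 and 36.6 CPM with DMSO, against 59.9, 64.5 and 59.8 CPM with Yoda1. Its log2 change of 0.62 (SE 0.17) did not pass (adjusted p = 0.129). Calca, the gene of CGRP and calcitonin, was at 150.1, 129 and 118 CPM with DMSO, against 168, 176 and 237 CPM with Yoda1; its log2 change was 0.55 (SE 0.16, adjusted p = 0.149). Like Ramp1, both lay higher in each Yoda1 library than in each DMSO library, as 10.6% of all tested genes did. Calcrl was named for the smallest p in its list, and Calca was the only tested gene of its list. None of the 3 passed in edgeR, and DESeq2 called Calcrl (adjusted p = 0.015) and Calca (adjusted p = 0.0189) as well as Ramp1. The ratio of Ramp1 to Calcrl in CPM was 10.9 ± 1.8 with DMSO and 9.70 ± 2.25 with Yoda1, which overlapped. Ramp3 was at 5.02 ± 0.25 and 5.30 ± 0.73 CPM, and Ramp2 at 0.757 ± 0.703 and 0.724 ± 0.408 CPM.

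Vipr2, the VPAC2 receptor for vasoactive intestinal peptide, lies on chromosome 12 at 116077726 to 116146261 (plus strand) and had the fewest reads, from 51 to 198 per library. It was at 4.53, 6.25 and 7.57 CPM with DMSO, against 10.8, 8.89 and 3.04 CPM with Yoda1. Yoda1 6 held the lowest level of all libraries and Yoda1 4 the highest. The log2 change was 0.31 (SE 0.48, 95% interval -0.79 to 1.41, adjusted p = 0.823), so a fold anywhere from 0.579 to 2.66 lay within the interval. Of 7 tested neuropeptide receptor genes none passed in edgeR, 5 had positive and 2 negative changes, and the median was 0.08. Without adjustment 2 were higher and 1 lower at a p under 0.05, against 7.39% and 7.11% of all tested genes. DESeq2 called Ramp1 and Calcrl. Of 4 neurotransmitter receptor genes none passed in edgeR or at an unadjusted p under 0.05, among them the ATP-gated channel gene P2rx7, at 1.26 ± 0.70 and 0.569 ± 0.643 CPM.

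**Figure D4:**
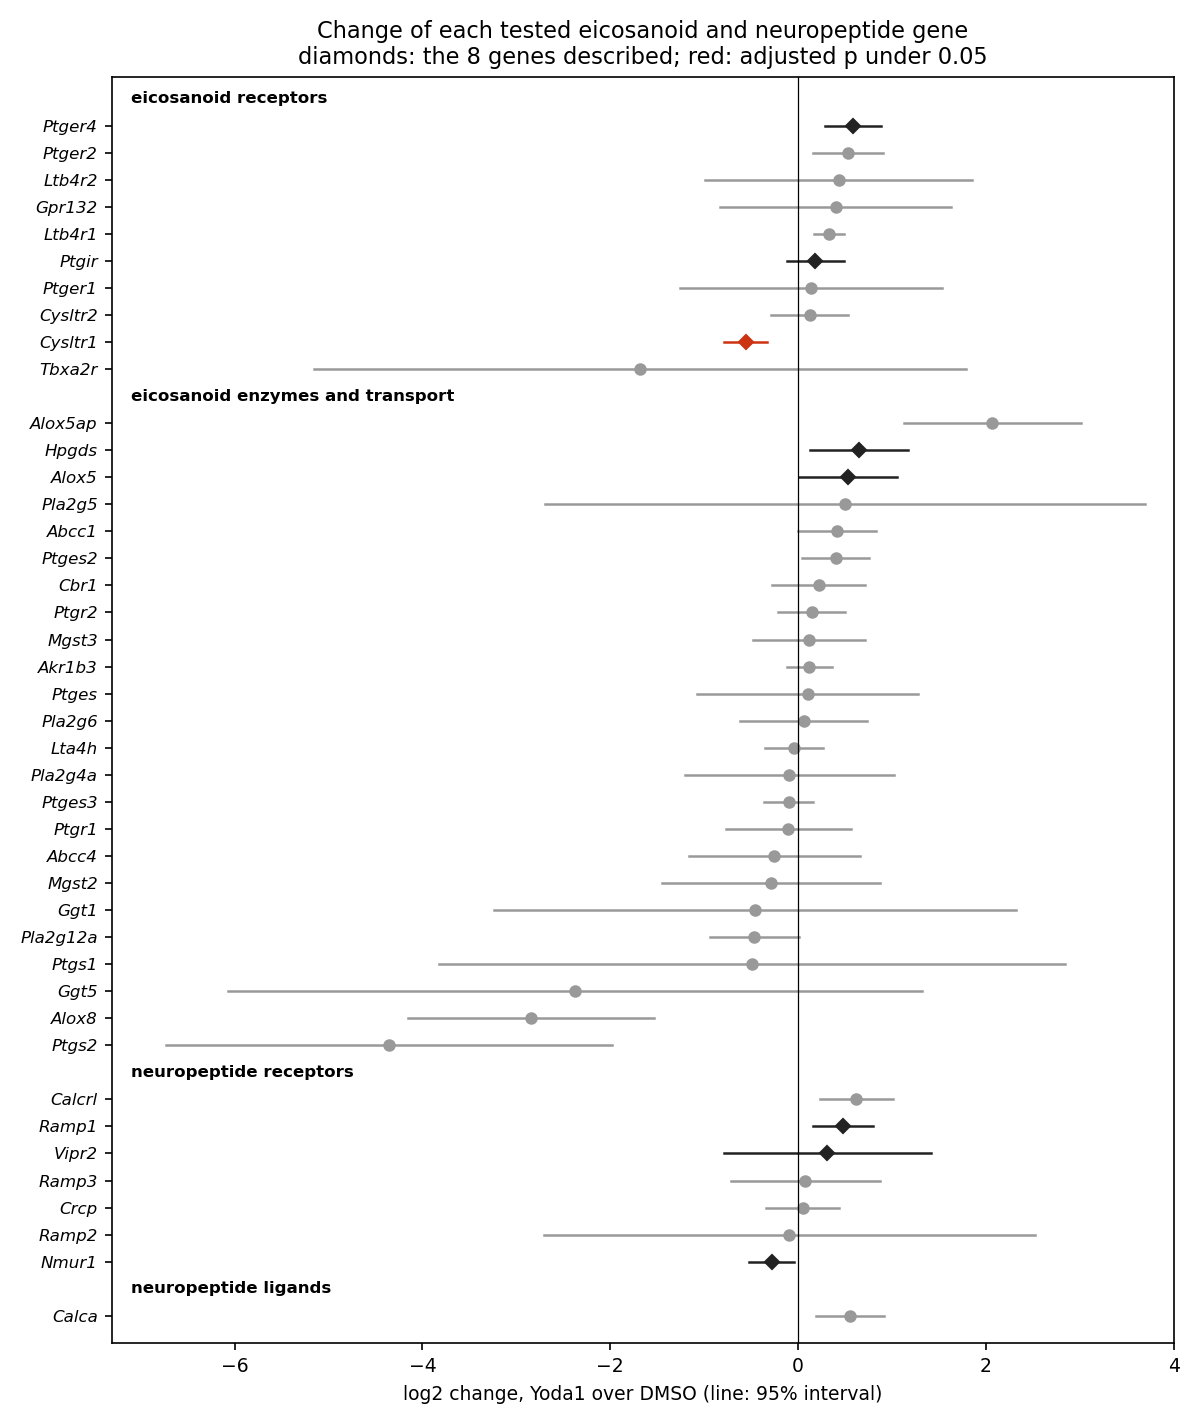
Log2 change of Yoda1 over DMSO (x axis) with its 95% interval for each tested gene of the eicosanoid and neuropeptide lists; diamonds are the 8 genes described. Cysltr1 at -0.56 is the only one with an adjusted p under 0.05 in edgeR, and the widest intervals belong to genes at low levels, such as Ptgs1 and Ggt5.

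Downstream of these receptors, 31 genes of G proteins and cyclic AMP signalling were tested and none passed in edgeR as fitted to all 6 libraries and 13325 genes. They had 14 positive and 17 negative changes and a median of -0.05. At an unadjusted p under 0.05, 2 were higher and 3 lower, against 7.39% and 7.11% of all tested genes. Grk2, the kinase that desensitises many G protein-coupled receptors, was at 128, 121 and 100.3 CPM with DMSO, against 68.3, 61.5 and 87.4 CPM with Yoda1. These groups did not overlap, and the log2 change of -0.69 (SE 0.17) did not pass (adjusted p = 0.0926), while it passed in DESeq2 (adjusted p = 0.00509), in edgeR on genes of at least 10 CPM in 3 libraries (adjusted p = 0.028) and in edgeR without Yoda1 6 (adjusted p = 0.0483). Gna15, the alpha subunit that links a broad range of receptors to phospholipase C, was at 152, 165 and 114 CPM with DMSO, against 180.3, 190.3 and 236 CPM with Yoda1 (adjusted p = 0.213). Gnai2, the subunit that inhibits adenylyl cyclase, was at 1106 ± 64 and 999 ± 14 CPM. Of the phosphodiesterases that degrade cyclic AMP, Pde4b was at 32.5 ± 0.2 and 42.6 ± 0.2 CPM, and Pde4d at 4.89 ± 1.41 and 1.44 ± 0.66 CPM; neither passed. The adenylyl cyclase genes Adcy7 and Adcy4 were at 146 ± 19 and 3.11 ± 1.64 CPM with DMSO and at 158 ± 34 and 3.70 ± 0.83 CPM with Yoda1. Among effectors, Prkaca, a catalytic subunit of protein kinase A, was at 57.3 ± 2.6 and 38.9 ± 12.02 CPM, and its regulatory partner Prkar1a at 806 ± 20 and 882 ± 19 CPM. Arrb2, which encodes a beta-arrestin, was at 83.0 ± 16.3 and 100.7 ± 14.4 CPM.

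The members differed in which Yoda1 library lay farthest out. Yoda1 6 was the highest for Ramp1 and Hpgds and the lowest for Ptger4, Ptgir, Alox5 and Vipr2 within its group, and for Cysltr1 it lay closest to DMSO. Across the 6 libraries the log2 CPM of Hpgds and Ramp1 had a Pearson r of 0.91, that of Cysltr1 and Nmur1 0.90, and that of Cysltr1 and Ptger4 -0.94; the points share libraries, depth and the treatment groups, so these values are descriptions. Libraries of the Yoda1 group also differed more over all genes where Yoda1 6 was in the pair: the chi-square per degree of freedom was 47.9 with Yoda1 4 and 34.5 with Yoda1 5, against 23.9 for the other pair, Yoda1 4 and 5, which share a label number. DMSO 2 and 3, which also share a label number, were at 19.8, between DMSO 1 and 3 at 18.1 and DMSO 1 and 2 at 24.4. The measure also rises with depth, and DMSO 2 held the most counts.

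**Figure D5:**
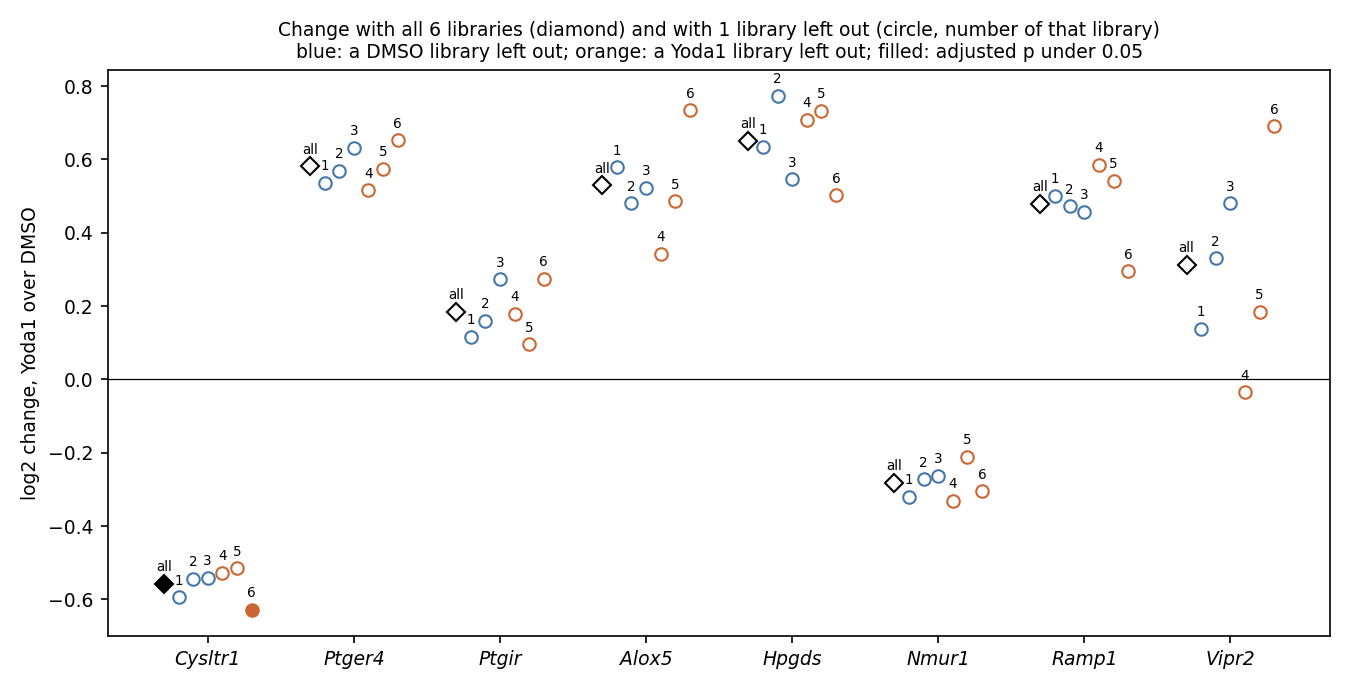
Log2 change of each of the 8 genes with all libraries (diamond) and with 1 library left out (circle, marked with the number left out); filled symbols have an adjusted p under 0.05. Cysltr1 stays between -0.63 and -0.52 and is filled with all libraries and without Yoda1 6, and Vipr2 crosses 0 without Yoda1 4.

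Among 9039 other tested genes with a mean of at least 5 CPM, those whose log2 CPM followed a member most closely over the 6 libraries were found for each. Cysltr1 was closest to the granzyme gene Gzmb (Pearson r = 0.998) and to Txndc5 (r = 0.997). Ptger4 was closest to Serpinb9 (r = 0.997) and Trmt2a (r = 0.989), and Ptgir to Etv3 and Rfx7 (both r = 0.976). For Alox5 they were Smad3 (r = 0.987) and Neat1 (r = 0.985), and for Hpgds Slc35e4 and Ngdn (both r = 0.995). Nmur1 came with Mapre1 (r = 0.991), Vipr2 with Ppp1r10 (r = 0.993) and Pacc1 (r = 0.984), and Ramp1 with Tspo (r = 0.998) and Phf23 (r = 0.996). With 6 points and 9039 genes, such values are a description of these libraries.

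Between 14214048 and 31627519 counts were held per library; a count of 0 allowed a level of up to 0.0949 to 0.211 CPM, depending on the library and for counting error only. All 15 ILC2 markers had counts, but Thy1 was scarce, at 2.89, 1.90 and 1.48 CPM of all counts with DMSO and 1.24, 0.115 and 1.05 CPM with Yoda1. In Yoda1 5 it lay below the level that a count of 0 allowed there (0.173 CPM). The 15 markers together had a summed level of 11349 to 11987 CPM of all counts with DMSO and 11975 to 13037 CPM with Yoda1. Il5 took the largest share of that sum, with 5343 to 5936 CPM and 6935 to 8258 CPM, and the other 14 summed to 6006 to 6051 CPM with DMSO and 4779.6 to 5463 CPM with Yoda1, where Icos and Il2ra were called lower. Mast cells also express Hpgds, Alox5 and Alox5ap, and 6 of 8 mast cell markers were analysed here, summing to 37.0 to 62.3 CPM with DMSO and 100.1 to 110.8 CPM with Yoda1. Tpsab1 made up most of that sum and was called higher, with a TMM-scaled level of 36.1 ± 13.4 and 95.5 ± 2.3 CPM (adjusted p = 0.0383), whereas the other 5 overlapped between the groups (sums of 7.11 to 13.7 CPM and of 9.12 to 13.7 CPM), Cpa3 lay between 2.22 and 6.77 CPM in both groups and Mcpt4 was at 0 in 4 libraries. The summed level of 6 of 9 macrophage markers was 10.8 to 13.6 CPM with DMSO and 19.0 to 24.1 CPM with Yoda1, through Cd68 and Lyz2, with Adgre1 at 0 in all Yoda1 libraries. The eosinophil marker Ccr3, the 1 of 7 analysed here, was at 8.44 to 11.9 CPM with DMSO and 5.196 to 6.77 CPM with Yoda1. Scgb1a1, the club cell marker, reached 302 and 293 CPM of all counts in 2 libraries (DMSO 2 and DMSO 3) and was at or near 0 in the other 4. These 2 libraries share a label number, and the epithelial marker Sftpa1 was at 21.4 and 21.6 CPM in them, against 3.78 CPM in DMSO 1. Sftpc, a marker of alveolar epithelium, was at 15.3 CPM in DMSO 1 and at most 0.569 CPM in the others. The part of other cells in the changes of Hpgds, Alox5, Alox5ap and the other members was not tested. The epithelial markers summed to 86.9 CPM in DMSO 1, against 382 and 392 CPM in the other DMSO libraries, mostly through Scgb1a1. Without Scgb1a1 the sums were 86.9, 90.05 and 88.3 CPM in DMSO 1, 2 and 3, and at most 70.2 CPM with Yoda1. Epcam made up most of these sums, at 67.8, 64.6 and 65.5 CPM in DMSO 1, 2 and 3. In Yoda1 4, 5 and 6 Epcam was at 58.4, 48.8 and 70.1 CPM, so its groups overlapped. The other markers in DMSO 1 were Sftpc, at 15.3 CPM, and Sftpa1, at 3.78 CPM. DMSO 1 is thus not free of these markers, and setting it alone against Yoda1 does not test their part. In that edgeR fit the log2 change was -0.49 for Cysltr1, 0.68 for Hpgds, 0.67 for Ptger4 and 0.43 for Alox5 and Ramp1. It was 0.74 for Vipr2 and -0.21 for Nmur1. The lone DMSO library has no spread of its own there and is assumed to vary like the Yoda1 libraries.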

How the data were processed

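The 6 libraries were ILC2 RNA from cultures with DMSO or Yoda1. The authors deposited 1 table of expected counts (estimated numbers of reads for each gene, many of them fractional). Its genome build was mm10, per the submitters' processing notes, and its name names Partek software. Neither aligner and counter nor strand setting and annotation were given in the sources used here. The smallest total of any gene was 10.

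Counts were rounded and tested with edgeR 4.0.16 in R 4.3.3: TMM, filterByExpr (count of 10 or more, total of 15 or more), then glmQLFit with glmQLFTest and no covariate. The SE of a log2 change is its size over the square root of F. CPM are TMM-scaled over tested genes unless said to be of all counts. Log2 CPM for correlations used a prior count of 2. DESeq2 1.42.0 and limma 3.58.1 served as alternatives. Simulated counts with known changes were used to check the fit. They had the same spread for every gene, below the common estimate from these data, and independent libraries. The check therefore does not cover the spread of these libraries or their shared label numbers. Positions and exon lengths came from GENCODE M21 (GRCm38).

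The members and lists were chosen with earlier results of these data known. Named genes were the members, list genes that passed, up to 2 of the smallest p per list role, and for each member the 2 genes with the most similar profile, leaving out predicted genes, pseudogenes and unnamed transcripts. The values of 2 genes that this rule names are not reported here. Other names (Cysltr2, Ltb4r1, Tbxa2r, Lta4h, Ramp2, Ramp3, Ggt5 and markers) were chosen after values were seen.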

Additional observations from a re-analysis of the deposited data

How the results depend on the processing

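No paired analysis was possible because the groups share no replicate number. Over all genes, 76 were higher and 123 lower; the counts were 422 and 496 with DESeq2, 121 and 179 with limma voom, 50 and 83 without a filter, 158 and 290 with at least 10 CPM in 3 libraries, 6 and 10 with glmTreat against a 1.5-fold change, 2 and 1 with the label suffix as a term, and 1 and 0 with libraries of a shared label number summed. Leaving out 1 library gave 4 to 74 higher and 5 to 146 lower. Alternatives added after seeing the data gave 0 and 0 for DMSO 1 alone against Yoda1 and 151 and 213 for voom with a random effect of label number. Of the 8 genes, 0 were higher and 1 (Cysltr1) was lower; DESeq2 gave 2 higher (Ptger4 and Ramp1), and 1 (Ptger4) was higher with at least 10 CPM in 3 libraries and in voom with the random effect, but not with the libraries of a shared label number summed (adjusted p = 0.328). The count of lower genes was 0 with glmTreat, the label suffix term, the summed libraries and DMSO 1 alone, and 0 to 1 with 1 library left out. With 1 library left out, the log2 change of Vipr2 ran from -0.03433 without Yoda1 4 to 0.6908 without Yoda1 6, and against DMSO 1 alone it was 0.7409. The log2 changes of the other 7 genes kept their sign in all 18 settings. For genes whose groups did not overlap, these settings hardly test the sign, as they reuse the same libraries. Vipr2 has no value under the filter of 10 CPM. Other scaling factors moved the median of all genes by at most 0.05. Low counts limit the precision for genes such as Vipr2 and Ptgs2. Fewer samples enter the fits with libraries left out or summed. With the label suffix as a term, DMSO 3 alone is set against the Yoda1 libraries. The cause of the other differences was not tested.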
